A study of Mus musculus with 8 samples.

Results

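The genes of MHC class II antigen presentation were followed in the livers of mice on a high-fat diet (HFD) and a normal diet (ND). The family was taken as 10 genes: the chain genes H2-Aa, H2-Ab1 and H2-Eb1, the invariant chain gene Cd74, the peptide-loading genes H2-DMa, H2-DMb1, H2-DMb2, H2-Oa and H2-Ob, and the regulator gene Ciita. All probes whose accession mapped to 1 of these symbols were used, which gave 11 of the 55681 probes on the array (26056 probes mapped to 19752 symbols). H2-Ob had a pair of probes and every other member had 1. Of the 10 members, 8 passed the filter on dim probes and were tested among 20165 features, 12885 of them with a symbol. H2-DMb2 and Ciita did not pass and are described by their values.

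Liver RNA of 8 male C57BL/6 mice, bought at 5 weeks of age, was labelled with Cy3 and hybridised to 1-colour Agilent arrays, 1 array per mouse. The groups were HFD for 9 months, HFD for 3 months, ND for 9 months and ND for 3 months, with 2 mice each. HFD held 58% fat and ND 4.8% fat, and food was freely available. The 9-month mice were also older than the 3-month mice, so duration and age cannot be told apart.

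MHC class II molecules are pairs of an alpha and a beta chain that hold peptides from engulfed material at the cell surface, where CD4 T cells read them. The invariant chain, Cd74, fills the groove of new molecules until H2-DM exchanges its remnant for peptides, and H2-O restrains H2-DM. Ciita is the coactivator that turns the family on, through factors bound to the X and Y boxes of their promoters. In liver the family is known mainly from dendritic cells, B cells, Kupffer cells and other macrophages, and sinusoidal endothelium. C57BL/6 mice make no working H2-E alpha chain, so the product of H2-Eb1 lacks its usual partner in this strain.

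Promoter sequences are shown for the members in which an X box core was found ahead of a Y box core, and for H2-Aa as a chain gene with the Y box core, because these boxes are the shared feature through which the family is known to be regulated. RefSeq promoters of build GRCm38.p6 were searched on both strands over the 250 bases before the start for the Y box core ATTGG and the X box core AGNAAC. These spellings were chosen after the members' promoters had been seen. Of 32851 promoters, 33.8% held the Y box core, 42.3% the X box core, and 0.737% an X box core 15 to 45 bases before a Y box core on the same strand. Promoters were listed for 7 members. H2-Ab1, Cd74 and Ciita had no entry and were not searched. The spaced pair was found in H2-Eb1, H2-DMb1, H2-Ob and H2-Oa, with 33, 34, 31 and 34 bases from the start of the X box core to the start of the Y box core. In the lines that follow, capitals mark the X box core and then the Y box core, and in H2-Aa the Y box core alone. The stretches lie at chr17:34305760-34305822 (H2-Eb1, plus strand), chr17:34153081-34153144 (H2-DMb1, plus strand), chr17:34238802-34238862 (H2-Ob, plus strand), chr17:34092287-34092350 (H2-Oa, plus strand) and chr17:34287857-34287921 (H2-Aa, minus strand).
H2-Eb1: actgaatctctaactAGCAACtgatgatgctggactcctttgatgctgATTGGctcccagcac
H2-DMb1: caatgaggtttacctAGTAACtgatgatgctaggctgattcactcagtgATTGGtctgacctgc
H2-Ob: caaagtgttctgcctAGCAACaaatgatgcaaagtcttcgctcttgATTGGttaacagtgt
H2-Oa: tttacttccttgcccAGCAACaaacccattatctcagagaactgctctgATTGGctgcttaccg
H2-Aa: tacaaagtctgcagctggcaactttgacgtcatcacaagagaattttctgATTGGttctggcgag
H2-DMb2 held the Y box core without the X box core, and so did 1 of the starts listed for H2-DMa. The spaced pair was thus present both in members that were called higher on HFD over both durations (H2-Eb1 and H2-DMb1) and in members that were not (H2-Oa and H2-Ob). The H2-Aa stretch holds ggcaac ahead of its Y box core. These letters differ from the searched X box core in the first base only, so they were not counted. A match, or the lack of a match, describes letters and not a binding site. Ordered along chromosome 17, the members run H2-Oa, H2-DMa, H2-DMb2, H2-DMb1, H2-Ob, H2-Ab1, H2-Aa and H2-Eb1.

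All levels are log2 of the background-subtracted signal minus log2 of the 75th percentile of that array, so 0 stands for a signal equal to that percentile. The percentile was an intensity of 184 to 425 on the HFD arrays and 477 to 593 on the ND arrays. The lowest, 184, belonged to mouse 2 of the HFD 9-month group, whose array also had the smallest share of spots well above background (40.6%, against 43% to 54.1% on the other 7). All HFD arrays lay on 1 slide and all ND arrays on another, so wherever the diets are compared, diet and slide cannot be told apart. Both slides carried the 9-month mice in row 2 and the 3-month mice in row 1. As a check of the tissue label, 12 of 12 hepatocyte markers were well above background on all 8 arrays. In whole liver, fewer cells of a type and less RNA per cell cannot be told apart.

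Over both durations most of the tested class II genes were called higher in the HFD livers, while few or none passed the test within a single duration. The median log2 fold change of the 8 tested members was 1.4 at 9 months and 1.64 at 3 months, against 0.02 and -0.01 over all features tested. Over both durations together, 5 of the 8 passed the threshold as higher (limma, Benjamini-Hochberg adjusted p under 0.05) and 0 as lower, where 10.2% of all features were called higher and 11.8% lower. The 5 were H2-Aa, H2-Ab1, H2-Eb1, H2-DMa and H2-DMb1. Within a single duration, in the fit of all 8 arrays, the calls were few. At 9 months 1 member (H2-DMb1) was called higher, where 3.59% of all features were higher and 4.7% lower. At 3 months 0 were called, where 1.47% were higher and 3.68% lower. At an unadjusted limma p under 0.05 the counts in this fit were 4 at 9 months and 6 at 3 months. The spread of all 4 groups entered these tests. With only the 4 arrays compared at 3 months, 7 members were called, beside 1140 of 20165 features called higher. The HFD arrays lay above both ND arrays for 4 members at 9 months, a pattern 28.8% of all features showed, and for 7 at 3 months, which 35.3% showed. All 4 HFD arrays lay above all 4 ND arrays for H2-Aa, H2-Ab1, H2-Eb1 and H2-DMb1, 4 of the 8, against 11.5% of all features.

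**Figure D1:**
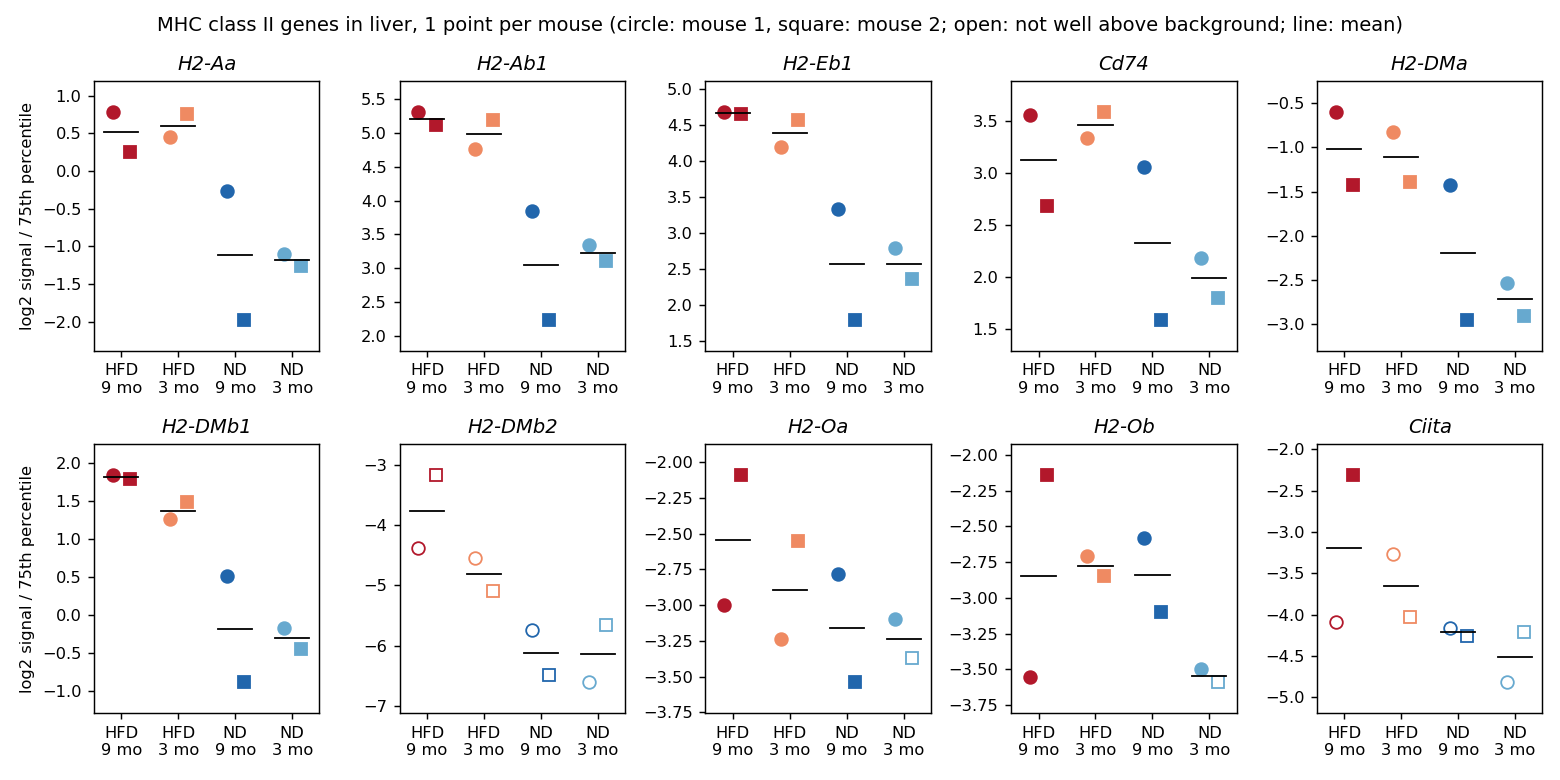
Level of each class II gene by mouse, as log2 signal over the 75th percentile of its array, with the groups HFD 9 months, HFD 3 months, ND 9 months and ND 3 months from left to right. Circles are mouse 1 and squares mouse 2 of a group, open symbols are spots not well above background, and the line is the mean of the group. H2-Ab1 lay between 4.76 and 5.31 on the HFD arrays and between 2.24 and 3.85 on the ND arrays, while H2-DMb2 was not well above background on any array.

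H2-Ab1, which encodes the beta chain of H2-A, rose on HFD 3.9-fold over both durations (log2 fold change 1.96 ± 0.34 SE, limma adjusted p = 0.00949, n = 4 mice per diet). Its level was 5.31 and 5.12 in the HFD 9-month mice and 4.76 and 5.2 in the HFD 3-month mice, against 3.85 and 2.24 in the ND 9-month mice and 3.34 and 3.11 in the ND 3-month mice. The 4 HFD values were the highest and did not overlap with the ND values, and mouse 2 of the ND 9-month group was the lowest of all.
H2-Ab1 group means were 5.22 ± 0.13 (HFD 9 months), 4.98 ± 0.31 (HFD 3 months), 3.05 ± 1.14 (ND 9 months) and 3.22 ± 0.16 (ND 3 months; SD, n = 2 each). The groups of the same diet did not differ beyond their spread. By duration its log2 fold change was 2.17 ± 0.5 at 9 months (limma adjusted p = 0.0509, 95% interval 0.96 to 3.38) and 1.75 ± 0.5 at 3 months (adjusted p = 0.0946, interval 0.54 to 2.96).

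H2-Eb1, the beta chain gene of H2-E, followed H2-Ab1 closely. It rose 3.89-fold on HFD over both durations (1.96 ± 0.33, limma adjusted p = 0.00839). Its level was 4.68 and 4.66 in the HFD 9-month mice and 4.2 and 4.57 in the HFD 3-month mice, against 3.34 and 1.8 in the ND 9-month mice and 2.79 and 2.36 in the ND 3-month mice. Again the diets did not overlap, and the HFD 9-month mice were nearly alike while the ND 9-month mice were far apart. By duration it differed by 2.1 ± 0.49 on the log2 scale at 9 months (limma adjusted p = 0.0515) and 1.81 ± 0.49 at 3 months (adjusted p = 0.0836). The difference between H2-Ab1 and H2-Eb1 on the same array varied by only 0.31 over the 8 arrays, from 0.46 to 0.63 on HFD and from 0.45 to 0.75 on ND.

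H2-Aa, which encodes the alpha chain that pairs with the H2-Ab1 product, rose 3.26-fold on HFD over both durations (1.71 ± 0.35, limma adjusted p = 0.0164). Its level was 0.78 and 0.25 in the HFD 9-month mice and 0.45 and 0.75 in the HFD 3-month mice, against -0.27 and -1.97 in the ND 9-month mice and -1.1 and -1.26 in the ND 3-month mice. Every HFD mouse was above every ND mouse, with mouse 1 of the ND 9-month group nearest to the HFD range. At 9 months the log2 fold change was 1.64 ± 0.53 (limma adjusted p = 0.108) and at 3 months 1.78 ± 0.53 (adjusted p = 0.105). With 1 array left out at a time, the call over both durations held in 7 of 8 cases for H2-Aa and was lost without mouse 2 of the ND 3-month group (adjusted p = 0.0557), while those of H2-Ab1 and H2-Eb1 held in 8 of 8.

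Cd74, the invariant chain gene, was 2.2-fold higher on HFD over both durations but did not pass the threshold (1.14 ± 0.36, limma adjusted p = 0.0619). Its level was 3.56 and 2.69 in the HFD 9-month mice and 3.34 and 3.59 in the HFD 3-month mice, against 3.06 and 1.59 in the ND 9-month mice and 2.18 and 1.8 in the ND 3-month mice. The diets overlapped at 9 months, where mouse 1 on ND exceeded mouse 2 on HFD, and did not overlap at 3 months. The log2 fold change was 0.8 ± 0.52 at 9 months (limma adjusted p = 0.36, 95% interval -0.46 to 2.05) and 1.48 ± 0.52 at 3 months (adjusted p = 0.143, interval 0.22 to 2.73). Over both durations Cd74 passed without mouse 2 of the HFD 9-month group (1.38, limma adjusted p = 0.0351) and without mouse 1 of the ND 9-month group (1.5, adjusted p = 0.0118).

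H2-DMb1 encodes a beta chain of the H2-DM peptide exchanger and was the member called higher at 9 months (3.98-fold, log2 fold change 1.99 ± 0.43, limma adjusted p = 0.0442). Its level was 1.84 and 1.78 in the HFD 9-month mice and 1.26 and 1.48 in the HFD 3-month mice, against 0.52 and -0.88 in the ND 9-month mice and -0.17 and -0.44 in the ND 3-month mice. The diets did not overlap. At 3 months the log2 fold change was 1.67 ± 0.43 (limma adjusted p = 0.0778), and over both durations it was 1.83 ± 0.29 (3.56-fold, adjusted p = 0.00726). The call at 9 months rested on the set of arrays: it held in 1 of 8 leave-outs, without mouse 1 of the ND 9-month group (2.69, adjusted p = 0.025), and the adjusted p reached 0.0986 in the others. Without the array of lowest signal, mouse 2 of the HFD 9-month group, it was 2.02 (adjusted p = 0.0842). The call over both durations held in 8 of 8 leave-outs.

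H2-DMa, the alpha chain gene of H2-DM, rose 2.63-fold on HFD over both durations (1.39 ± 0.37, limma adjusted p = 0.0353). Its level was -0.6 and -1.43 in the HFD 9-month mice and -0.82 and -1.39 in the HFD 3-month mice, against -1.43 and -2.95 in the ND 9-month mice and -2.53 and -2.91 in the ND 3-month mice. Mouse 2 on HFD and mouse 1 on ND met at 9 months, and the other ND mice were lower than every HFD mouse. Its log2 fold change was 1.17 ± 0.55 at 9 months (limma adjusted p = 0.215) and 1.61 ± 0.55 at 3 months (adjusted p = 0.134). Over both durations it ran from 0.67 to 1.41 under 9 alternative settings of the processing, so its size depended on them. The call over both durations held in 2 of 8 leave-outs, without mouse 2 of the HFD 9-month group (adjusted p = 0.0279) or mouse 1 of the ND 9-month group (adjusted p = 0.0101), and the adjusted p reached 0.104 in the other cases.

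H2-DMb2, a close relative of H2-DMb1 that also encodes an H2-DM beta chain, was not well above background on any array. Its processed intensity was 20 and 20 in the HFD 9-month mice and 16 and 12 in the HFD 3-month mice, against 11 and 6 in the ND 9-month mice and 6 and 9 in the ND 3-month mice. No fold change is given for a gene below background in all groups. Whether RNA of one of these relatives hybridised to the probe of the other was not tested.

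The H2-O genes, whose products restrain H2-DM, did not pass the test in any comparison of diets when all 8 arrays were fitted. H2-Oa, the alpha chain gene, had a level of -3 and -2.09 in the HFD 9-month mice and -3.24 and -2.55 in the HFD 3-month mice, against -2.78 and -3.54 in the ND 9-month mice and -3.1 and -3.37 in the ND 3-month mice. The diets overlapped at both durations, and mouse 2 was above mouse 1 in each HFD group. The log2 fold change was 0.61 ± 0.42 at 9 months (limma adjusted p = 0.384, 95% interval -0.41 to 1.64), 0.34 ± 0.42 at 3 months (adjusted p = 0.635, interval -0.68 to 1.37) and 0.48 ± 0.28 over both (adjusted p = 0.252). H2-Oa was well above background on 7 of 8 arrays, all but that of mouse 2 of the ND 3-month group.

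H2-Ob, the beta chain gene, was read by a pair of probes. The tested probe gave -3.55 and -2.14 in the HFD 9-month mice and -2.71 and -2.85 in the HFD 3-month mice, against -2.58 and -3.1 in the ND 9-month mice and -3.5 and -3.59 in the ND 3-month mice. At 9 months the HFD mice lay on either side of both ND mice, and at 3 months both HFD mice were higher. The log2 fold change was -0.01 ± 0.45 at 9 months (limma adjusted p = 0.994, 95% interval -1.1 to 1.08), 0.76 ± 0.45 at 3 months (adjusted p = 0.325) and 0.38 ± 0.33 over both (adjusted p = 0.428). The value over both durations hung on the HFD 9-month mice: it was 0.73 without mouse 1 (limma adjusted p = 0.0365, past the threshold) and 0.17 without mouse 2 (adjusted p = 0.709). H2-Ob also passed at 3 months when only the 4 arrays compared were fitted (0.76, limma adjusted p = 0.0452). The other probe, above background on 4 of 8 arrays and not tested, differed between the diets by 0.71 at 9 months and 0.81 at 3 months, so the pair disagreed at 9 months. The 95% intervals of both H2-O genes reached above a log2 fold change of 1 at each duration (up to 1.64 and 1.37 for H2-Oa, and 1.08 and 1.85 for H2-Ob).

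Ciita was well above background on 1 of 8 arrays. Its level was -4.09 and -2.31 in the HFD 9-month mice and -3.27 and -4.03 in the HFD 3-month mice, against -4.16 and -4.26 in the ND 9-month mice and -4.82 and -4.21 in the ND 3-month mice. The value of -2.31 was the one above background and came from the array of lowest signal. On this scale every HFD array was above every ND array, although 7 of the 8 values were not well above background. Before scaling, the processed intensity was 25 and 37 in the HFD 9-month mice and 38 and 26 in the HFD 3-month mice, against 33 and 29 in the ND 9-month mice and 20 and 26 in the ND 3-month mice. The unscaled values of the diets overlapped at 9 months. No fold change is given.

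**Figure D2:**
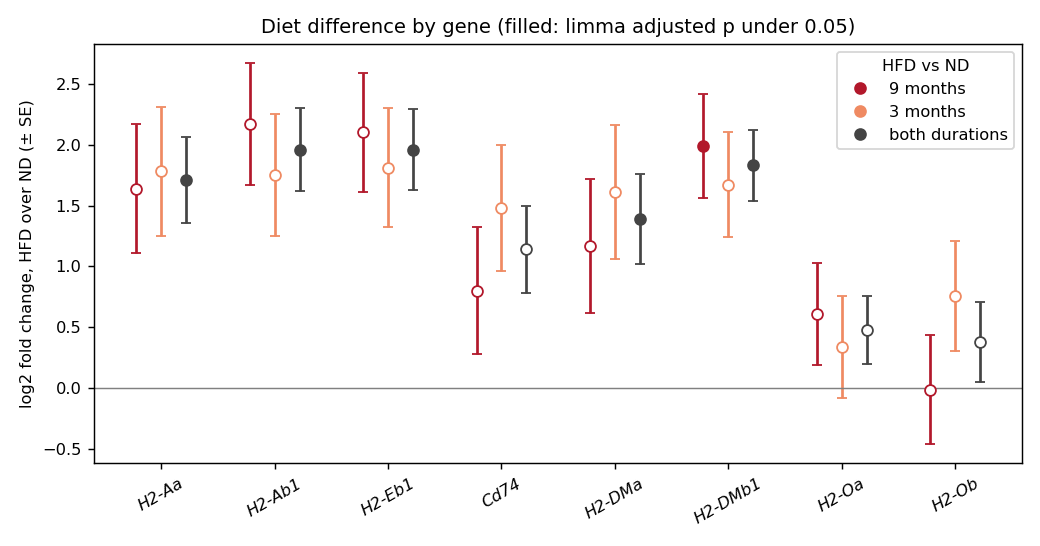
Log2 fold change of HFD over ND for the 8 tested class II genes at 9 months, at 3 months and over both durations, with bars of 1 SE from limma. Filled points passed an adjusted p of 0.05. H2-DMb1 was filled at 9 months (1.99), and H2-Aa, H2-Ab1, H2-Eb1, H2-DMa and H2-DMb1 over both durations (1.39 to 1.96), while H2-Oa and H2-Ob lay between -0.01 and 0.76.

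No difference with the duration of feeding passed the test for any tested member. For 9 against 3 months on HFD, log2 fold changes ran from -0.34 (Cd74) to 0.45 (H2-DMb1), with limma adjusted p-values of 0.623 to 0.956. On ND they ran from -0.18 (H2-Ab1) to 0.71 (H2-Ob), with adjusted p-values of 0.532 to 0.997. In each of these comparisons 0 of 8 members were called and 0 had an unadjusted limma p under 0.05, where 0.00496% of all features were called higher and as many lower on HFD, and 0.441% higher and 0.61% lower on ND. The 9-month arrays lay above the 3-month arrays for H2-Eb1 and H2-DMb1 on HFD, a pattern of 21.4% of all features, and for H2-Ob on ND, a pattern of 23.1%. The diet difference itself was compared between durations by the interaction, a difference of differences within slides. It called 0 of 8 members and 0% of all features in each direction, with member values of -0.77 (H2-Ob) to 0.42 (H2-Ab1), adjusted p-values of 0.789 to 0.973 and 0 members at an unadjusted limma p under 0.05. The intervals were wide, from -2.46 to 1.1 for Cd74 and from -1.29 to 2.13 for H2-Ab1.

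Pairs of members differed in how far the diets parted them. On each array H2-Ab1 was set against Cd74, and the difference was 1.75 and 2.43 in the HFD 9-month mice and 1.42 and 1.61 in the HFD 3-month mice, against 0.79 and 0.65 in the ND 9-month mice and 1.16 and 1.31 in the ND 3-month mice. It was larger in every HFD mouse than in any ND mouse, with nearest values of 1.42 on HFD and 1.31 on ND. The same held for H2-Eb1 against Cd74, at 0.86 to 1.97 on HFD and 0.2 to 0.62 on ND, and for H2-Aa against Cd74, at -2.89 to -2.44 on HFD and -3.56 to -3.06 on ND. H2-DMb1 against H2-Oa gave 3.88 to 4.84 on HFD and 2.67 to 3.3 on ND, and H2-DMb1 against H2-Ob gave 3.93 to 5.39 on HFD and 2.22 to 3.33 on ND. Both H2-O genes lay near the lowest level well above background, which was -4.62 to -3.37 over the arrays. How far they themselves differed is therefore uncertain. In contrast, H2-DMb1 against H2-DMa overlapped, at 2.08 to 3.21 on HFD and 1.95 to 2.47 on ND. H2-Ab1 against H2-DMb1 also overlapped, at 3.34 to 3.72 on HFD and 3.12 to 3.55 on ND. These pairs were picked with the values known and carry no test, and a difference between probes is meaningful only as a change from array to array.

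**Figure D3:**
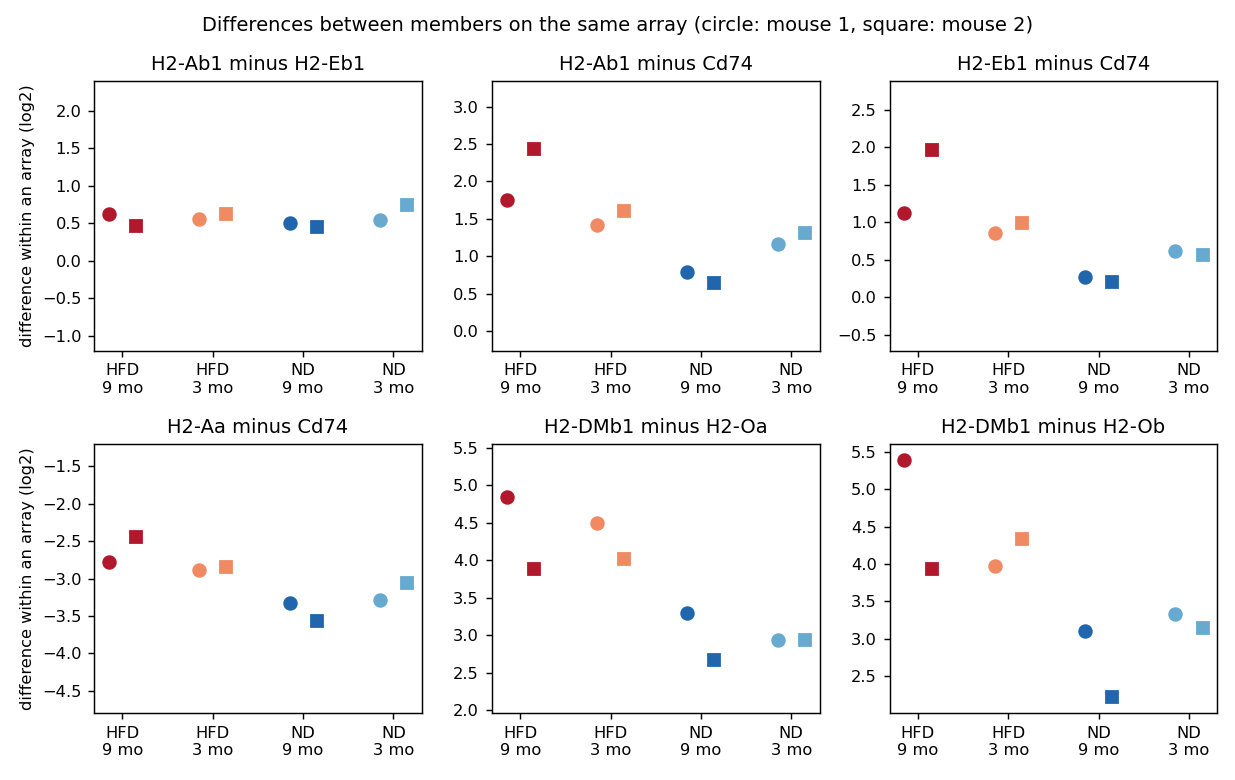
Difference between pairs of class II genes on the same array (log2), with the groups HFD 9 months, HFD 3 months, ND 9 months and ND 3 months from left to right, circles for mouse 1 and squares for mouse 2. H2-Ab1 minus H2-Eb1 stayed between 0.45 and 0.75, whereas H2-Ab1 minus Cd74 was 1.42 to 2.43 on HFD and 0.65 to 1.31 on ND.

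Within ND at 9 months the mice stood apart across the family. All 8 tested members were higher in mouse 1 than in mouse 2, by 0.52 to 1.7 with a median of 1.49 on the log2 scale. Over all features 51.2% were higher in mouse 1, with a median of 0.01. On ND at 3 months all 8 members were also higher in mouse 1, by 0.1 to 0.44, as were 50.6% of all features. In the other groups the median gap between mouse 1 and mouse 2 over the members was 0.12 (HFD 9 months), -0.27 (HFD 3 months) and 0.28 (ND 3 months). Markers of most other cell types differed between the same ND 9-month mice in the same direction. Of the Kupffer cell and macrophage markers 11 of 11 were higher in mouse 1 (median 1.77), of the monocyte markers 8 of 9 (median 1.76), of the B cell markers 6 of 7 (median 1.46), and of the dendritic cell markers 6 of 8 (median 0.84). So were 9 of 9 stellate (median 0.39), 10 of 12 endothelial (median 0.25) and 5 of 7 T cell markers (median 0.44). Of the hepatocyte markers 3 of 12 were higher in mouse 1 (median -0.17). Their part in the members' gap was not tested. Without mouse 1 of this group, 4 members passed at 9 months: H2-Aa (2.49), H2-Ab1 (2.97), H2-Eb1 (2.87) and H2-DMb1 (2.69, limma adjusted p = 0.025 to 0.0308 for the 4). Without mouse 2 of this group, 0 members passed at 9 months, the median over the members was 0.6, and H2-Aa was at 0.79, H2-DMa at 0.41 and Cd74 at 0.06.

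The genes whose profile was most like the mean of H2-Aa, H2-Ab1, H2-Eb1 and Cd74 were Samhd1, Rab6a, H2-M3, P2ry14 and Ctbp2, with Pearson's r of 0.991, 0.99, 0.988, 0.984 and 0.984 over the 8 arrays, which share 2 slides and 2 diets. H2-M3 is a class I molecule that presents formylated peptides, Samhd1 a dNTP-degrading enzyme, Rab6a a Golgi GTPase, P2ry14 a receptor for UDP-sugars and Ctbp2 a transcriptional corepressor. The log2 fold change of H2-M3 was 1.41 at 9 months and 1.24 at 3 months, and that of Rab6a was 0.32 and 0.27, so likeness of profile covered unlike sizes of difference. Among the members, H2-Oa had r of 0.48 to 0.72 and H2-Ob 0.31 to 0.45 with the 6 chain, invariant chain and H2-DM genes, which had 0.88 or more with each other. These values describe 8 arrays and carry no test.

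Companion genes of the pathway were counted beside shares over all features of 3.59% higher at 9 months and 1.47% at 3 months. Of 13 antigen processing genes, 1 was called higher at 9 months and 0 at 3 months, with 0 lower (median 0.42 and 0.16). It was Cd63, a tetraspanin of late endosomes (2.5 ± 0.31, limma adjusted p = 0.0115, and 1.08, adjusted p = 0.0946, at 3 months). Marchf1, the ubiquitin ligase that removes class II from the surface, was at -3.26 ± 0.79 at 3 months (limma adjusted p = 0.067), while its other probe was at 1.58. Of 20 genes of class II transcription and interferon signalling, 15 were tested, 1 was called higher at 9 months and 0 at 3 months, with 0 lower (median 0.19 and 0.48). That was the interferon gamma receptor chain gene Ifngr2 (1.11 ± 0.24, limma adjusted p = 0.0451, and 1.16, adjusted p = 0.0509, at 3 months). Irf8, a transcription factor of myeloid and B cells, was at 1.26 at 3 months (limma adjusted p = 0.0855).

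Of 8 co-stimulation genes 6 were tested, with 0 called at 9 months and 1 higher at 3 months (median 0.92 and 1.49). Cd83, which stabilises class II at the surface by opposing Marchf1, rose at 3 months (2.7 ± 0.53, limma adjusted p = 0.0445) and was at 1.34 at 9 months (adjusted p = 0.159), and Cd80, a ligand of CD28, was at -0.75 at 9 months (adjusted p = 0.129), while its other probe was at 0.56. Of 20 MHC class I pathway genes, 1 was called higher at 9 months and 0 at 3 months (median 0.32 and 0.41). That gene was Erap1, which trims peptides for class I (0.94 ± 0.19, limma adjusted p = 0.0353). At 3 months the immunoproteasome subunit gene Psmb8 was at 0.95 (limma adjusted p = 0.0699) and the chaperone gene Canx at 0.6 (adjusted p = 0.0897). Over both durations 1 of 13 processing, 5 of 15 transcription, 2 of 6 co-stimulation and 7 of 20 class I genes were called higher and 0 lower, beside 10.2% of all features higher. The remaining class II genes listed, H2-Eb2 and Btnl2, did not pass the filter on dim probes.

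**Figure D4:**
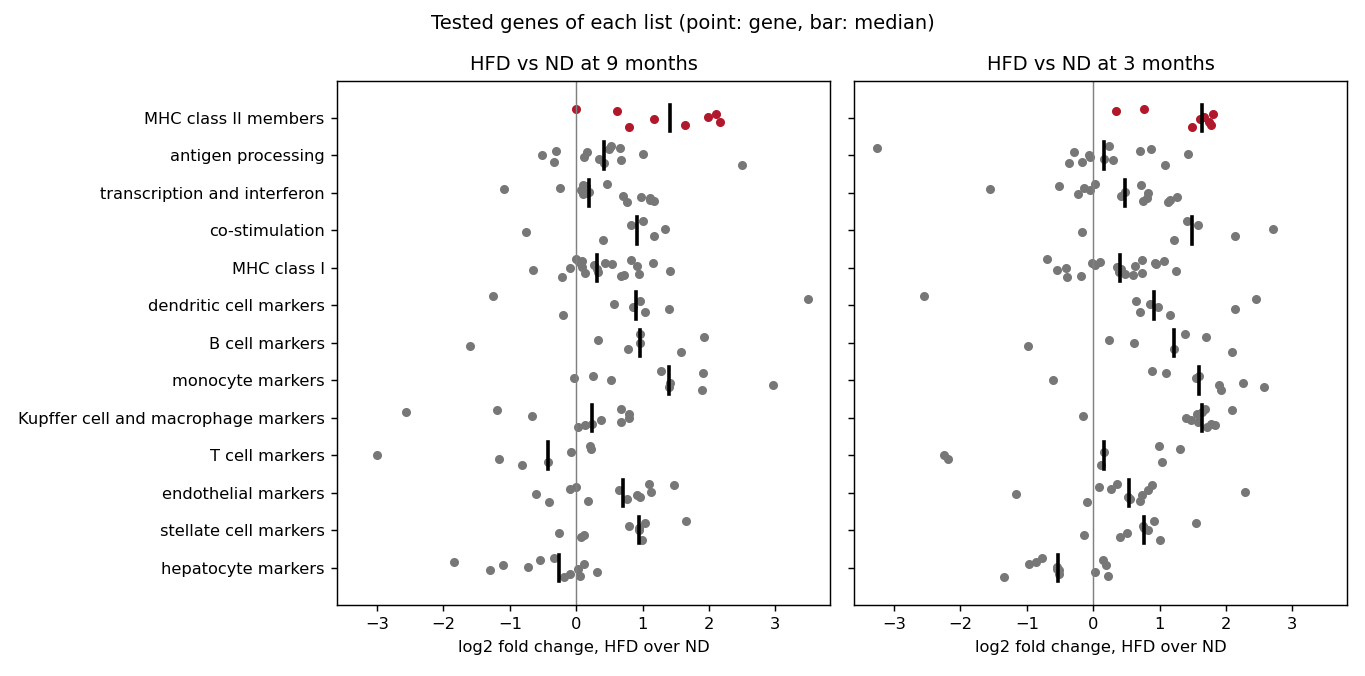
Log2 fold change of HFD over ND at 9 months (left) and 3 months (right) for the tested genes of each list, 1 point per gene, with the median as a bar. The class II members, in red, had medians of 1.4 and 1.64, and the class I list had medians of 0.32 and 0.41.

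Markers of cells that carry class II also differed between the diets, and their part in the members' differences was not tested. Over all features, 3.59% were called higher and 4.7% lower at 9 months, and 1.47% higher and 3.68% lower at 3 months. Over both durations 10.2% were called higher and 11.8% lower. The median log2 fold change of all features was 0.02, -0.01 and 0.01 in turn. Of the monocyte markers 9 were tested, with 2 called higher at 9 months, 1 at 3 months and 4 over both durations, and 0 lower (median 1.39, 1.59 and 1.51). The fractalkine receptor gene Cx3cr1 rose at 9 months (2.96 ± 0.31, limma adjusted p = 0.00891) and at 3 months (1.89 ± 0.31, adjusted p = 0.0304), and Plac8 at 9 months (1.91 ± 0.4, adjusted p = 0.041). Of 8 dendritic cell markers tested, 6 at 9 months and 7 at 3 months had a positive log2 fold change (median 0.9 and 0.91), and over both durations 4 were called higher and 1 lower (median 0.84). The integrin gene Itgax (CD11c) rose at 9 months (3.49 ± 0.49, limma adjusted p = 0.0153) and at 3 months (2.45 ± 0.49, adjusted p = 0.0469, with 1 of 2 ND arrays above background). Siglech fell at 3 months (-2.55 ± 0.44, limma adjusted p = 0.0329), but its other probe differed by 2.64 in the opposite direction. Of 7 B cell markers tested, 6 had a positive log2 fold change at each duration (median 0.96 and 1.21), and over both durations 2 were called higher and 1 lower (median 1). Blnk rose at 3 months (2.09 ± 0.39, limma adjusted p = 0.0404) and Cd22 fell at 9 months (-1.6 ± 0.3, adjusted p = 0.0298). Of 11 Kupffer cell and macrophage markers, 0 were called at either duration or over both (median 0.24 at 9 months, 1.63 at 3 months and 0.98 over both). Those with the smallest p were Marco (-2.57, limma adjusted p = 0.191) and Csf1r (-0.67, adjusted p = 0.31, with other probes at -0.12 and 0.03) at 9 months and Clec4f (1.4, adjusted p = 0.129) and C1qb (1.77, adjusted p = 0.137) at 3 months.

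The summed linear level of each marker list was expressed in units of the array's 75th percentile. The monocyte sum was 13.2 to 29 on the HFD arrays and 10.3 to 15.2 on the ND arrays, and the B cell sum 3.8 to 5.91 on HFD and 2.33 to 4.33 on ND. The Kupffer cell and macrophage sum was 120 to 243 on HFD and 64.1 to 441 on ND, with the 441 in mouse 1 of the ND 9-month group. The dendritic cell sum was 25.9 to 100 on HFD and 119 to 281 on ND. The ranges of the diets overlapped for the monocyte, B cell, and Kupffer cell and macrophage lists. The dendritic sum was lower on HFD, opposite to the median of its markers. It rests mostly on the Siglech probe whose partner differed in the other direction at 3 months. The 9-month difference of that partner, and whether it was above background, are not given here. Well above background on all 8 arrays were 4 of 11 B cell markers, 4 of 11 dendritic, 10 of 11 Kupffer cell and macrophage and 6 of 9 monocyte markers. Cd79a and Blk of the B cell list and Xcr1 of the dendritic list were above background on none. The mean log2 level of H2-Aa, H2-Ab1, H2-Eb1 and Cd74 was 3.18 to 3.58 on HFD and 0.92 to 2.49 on ND.

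Among other liver cells, Lyve1, a sinusoidal endothelial receptor, rose at 3 months (2.28 ± 0.34, limma adjusted p = 0.0252), 1 of 12 endothelial markers called there and 0 at 9 months (median 0.54 and 0.71), while over both durations 4 were called higher and 1 lower. At 9 months Stab2 was at 1.47 (limma adjusted p = 0.0557) and Vwf at 1.1 (adjusted p = 0.0902). The pericyte gene Rgs5 rose at 9 months (1.65 ± 0.34, limma adjusted p = 0.038), 1 of 9 stellate cell markers, and Reln (1.55, adjusted p = 0.101) and Colec11 (1, adjusted p = 0.103) led at 3 months, where 0 were called. The stellate list had medians of 0.94 at 9 months and 0.76 at 3 months, and over both durations 6 of 9 were called higher and 0 lower, beside the members' 5 of 8 and 10.2% of all features. The part of these cells in the members' differences was not tested. Of 7 T cell markers Cd4 fell at 9 months (-3 ± 0.35, limma adjusted p = 0.0108) and at 3 months (-2.24 ± 0.35, adjusted p = 0.0274), and its other probe was at -1.44 and -1.66. On the ND arrays the tested Cd4 probe read 7.24 to 7.8, against 2.08 to 2.49 for Cd3e and below 0 for the other T cell markers tested. Whether the Cd4 signal came from T cells was not tested. The T cell list as a whole had 2 of 7 positive log2 fold changes at 9 months (median -0.42) and 5 of 7 at 3 months (median 0.16), with 0 higher and 2 lower over both durations. Of 12 hepatocyte markers Tat, an amino acid-degrading enzyme, fell at 9 months (-1.84 ± 0.3, limma adjusted p = 0.0231), and at 3 months Alb was at -1.35 (adjusted p = 0.0746) and Hnf4a at -0.55 (adjusted p = 0.125). The hepatocyte list had medians of -0.25 at 9 months and -0.54 at 3 months, with 0 higher and 2 lower over both durations. Over all features 11.8% were called lower over both durations.

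**Figure D5:**
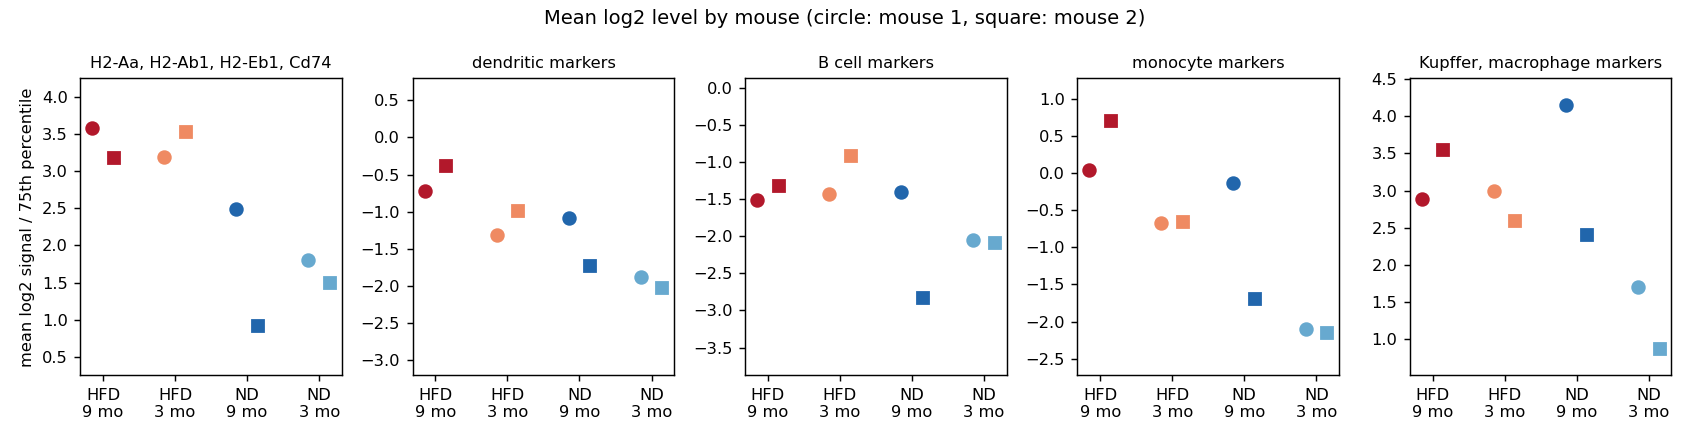
Mean log2 level by mouse of 4 class II genes and of the dendritic cell, B cell, monocyte, and Kupffer cell and macrophage markers, with the groups HFD 9 months, HFD 3 months, ND 9 months and ND 3 months from left to right, circles for mouse 1 and squares for mouse 2. The class II mean was 3.18 to 3.58 on HFD and 0.92 to 2.49 on ND, and in mouse 1 of the ND 9-month group the Kupffer cell and macrophage mean (4.15) was the highest of the 8.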

How the data were processed

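The arrays were read by the authors with Agilent Feature Extraction 10.7.1.1, per the submitters' processing notes. Its processed signal, per the file headers, is a background-subtracted intensity with no scaling between arrays. The flags deposited by the authors (well above background, outlier) are other values, 0 or 1 per spot. The authors' deposited table of log2 values was used as an alternative. It had the same order as the median signal on every array (Spearman's rho of 1) and equal column medians of 7.14. How its values were otherwise normalized was not checked.

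Control spots (3671) and outlier spots were left out, 59305 spots were read, the log2 processed signal was scaled to the 75th percentile of each array with a pseudocount of 0, and spots of a probe were averaged. A probe was kept if both arrays of any group had it well above background, and the brightest kept probe stood for its gene. Files use mm9 names; symbols come from RefSeq tables of GRCm38.p6, as do the promoters. Under R 4.3.3, with the data.table package at version 1.17.8, limma 3.58.1 fitted the 4 group means (residual degrees of freedom 4, prior degrees of freedom 2.32) and diets over both durations in a separate fit with duration as covariate. P-values were adjusted over all 20165 features by Benjamini-Hochberg. The labels number separate mice, 1 array each. Precision is limited by the number of arrays. The steps were tested on simulated data. Figures were drawn with Python 3.11.15 and matplotlib 3.10.9.

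The members, companion lists and rules were chosen with earlier results of these data known. All 10 members are named, then from each list up to 4 genes past the threshold per duration, or the 2 with the smallest p where none passed. The 5 genes of most similar profile are named by Pearson's r. Alternatives were quantile normalization, normexp (offset 50, on the median signal), the authors' table, other filters and probe rules, moderation with trend, a replicate block, the 4 arrays compared alone and leaving out each array. Probe sequences and exon positions were not used here.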

Additional observations from a re-analysis of the deposited data

Results flagged for a closer look

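The probe of Ciita, the coactivator gene of the family, took part in no test because it was well above background on 1 of 8 arrays. That array, of mouse 2 of the HFD 9-month group, had a scaled log2 level of -2.31, against -4.09 in the other mouse of its group, -3.27 and -4.03 in the HFD 3-month mice and -4.82 to -4.16 on the ND arrays. Its unscaled intensity of 37 was within the range of 20 to 38 over the other 7 arrays, and the array had the lowest 75th percentile (184).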

How the results depend on the processing

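Over both durations, 5 members were called higher and 5 or 6 under 9 alternative settings, with H2-DMb2, below background on all arrays, in place of H2-DMa when dim probes were not filtered. The member median over both durations (1.55) ran from 1.1 to 1.77 under these settings. At 9 months (1.4) it ran from 0.95 to 1.81 and at 3 months (1.64) from 1.23 to 1.71. Each lowest median came with the authors' value table. The count at 9 months (1) was 2 with quantile normalization, 3 with normexp, the authors' value table, probes well above background on all arrays, or trend and robust moderation, and 0 with no filter on dim probes, with a replicate block or with only the 4 arrays compared. At 3 months (0) it was 7 with only the 4 arrays compared, a fit that the spread of the 9-month groups did not enter. For H2-Ab1 the SD was 1.14 in the ND 9-month group, against 0.16 in the ND 3-month group. For H2-Eb1 it was 1.09 against 0.31. The part of this spread in the count was not tested. H2-Ob at 9 months (-0.01) turned to 0.07 with quantile normalization, 0.42 with normexp and 0.2 with the authors' table, and ran from -0.71 to 0.69 with 1 array left out, 0.25 without mouse 1 of the ND 9-month group. H2-Oa at 3 months ran from -0.01 to 0.69, the lowest without mouse 2 of the HFD 3-month group. With 1 array left out, the member counts ran from 0 to 4 at 9 months, 0 to 4 at 3 months and 3 to 6 over both, with medians of 0.6 to 2.21, 1.48 to 1.81 and 1.26 to 1.9. The medians ran from 0.01 to 0.26 for 9 against 3 months on HFD, from -0.48 to 0.87 on ND and from -0.74 to 0.68 for the interaction, where 0 members were called in each. A lone array was assumed to vary like the other groups.

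Counts over all features (1671 at 9 months, 1039 at 3 months, 2 and 212 for duration on HFD and ND, 0 for the interaction, 4440 over both) ran over the settings from 0 to 2270, 72 to 2748, 0 to 69, 5 to 317, 0 to 1 and 2381 to 5121. Leaving out single arrays gave 364 to 2511, 0 to 2231, 0 to 1937, 0 to 340, 0 to 3 and 1831 to 5950. Without the filter on dim probes the median of all features moved to 0.3 at 9 months, 0.25 at 3 months and 0.26 over both. Of the features called for duration on HFD, 50% were higher (of 2), against 37.7% with quantile normalization and 31.9% with the authors' table. Labels give the mice of each group the numbers 1 and 2, but mice of the same number did not deviate together (correlations of -0.02 to 0.14). With the number as a replicate block, H2-DMb1 at 9 months had a limma adjusted p of 0.0542 and Cd74 over both durations 0.0455. Slide as a block could not be fitted for diet, since each diet lay on its own slide.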

Other observations

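Within the class I pathway, H2-K1 and B2m differed in opposite directions. They were picked after their values had been seen and are given without a test. H2-K1, the heavy chain gene of a classical class I molecule, had a level of 8.88 and 8.94 in the HFD 9-month mice and 8.92 and 8.94 in the HFD 3-month mice, against 8.68 and 8.48 in the ND 9-month mice and 8.52 and 8.55 in the ND 3-month mice. Every HFD mouse was higher than every ND mouse, with log2 fold changes of 0.33 at 9 months and 0.39 at 3 months. B2m, the light chain gene shared by class I molecules, had 8.28 and 8.54 in the HFD 9-month mice and 8.47 and 8.21 in the HFD 3-month mice, against 8.68 and 8.57 in the ND 9-month mice and 8.83 and 8.66 in the ND 3-month mice. Every HFD mouse was lower than every ND mouse, with log2 fold changes of -0.21 at 9 months and -0.4 at 3 months. The nearest B2m values were 8.54 on HFD and 8.57 on ND. Of the 20 class I genes, 6 had every HFD array above every ND array and 1 had every HFD array below. Over all features 11.5% had every HFD array above. The share with every HFD array below was not counted, so the B2m pattern has no such reference.

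Among antigen processing genes, Cd63 differed with duration on HFD in its values: 4.63 and 4.3 in the HFD 9-month mice, 2.17 and 3.03 in the HFD 3-month mice, 1.86 and 2.07 in the ND 9-month mice and 1.48 and 1.56 in the ND 3-month mice. The log2 fold change for 9 against 3 months on HFD was 1.87 ± 0.31 and did not pass the threshold (limma adjusted p = 0.111). Cx3cr1 and Itgax, markers of mononuclear phagocytes, had their highest values in the HFD 9-month mice too. Cx3cr1 was at 0.25 and 0.24 in the HFD 9-month mice and -1.53 and -0.96 in the HFD 3-month mice, against -2.35 and -3.1 in the ND 9-month mice and -3.24 and -3.02 in the ND 3-month mice. Itgax was at 0.4 and 0.67 in the HFD 9-month mice and -1.62 and -0.9 in the HFD 3-month mice, against -2.29 and -3.63 in the ND 9-month mice and -3.4 and -4 in the ND 3-month mice. For 9 against 3 months on HFD neither passed (limma adjusted p = 0.158 for Cx3cr1 and 0.214 for Itgax). The other Cx3cr1 probe differed between the diets by 1.69 at 9 months and 1.99 at 3 months. Other markers of the same lists differed in pattern: Lyz2 (1.15) and Batf3 (0.14) were highest in mouse 1 of the ND 9-month group.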
